A study of Arabidopsis thaliana with 9 samples.

Results

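The nuclear photosynthetic light-reaction genes of Arabidopsis thaliana encode the chloroplast proteins that harvest light and turn it into electron flow and ATP. They were taken as 50 named rows among the 33602 genes of the count table. The choice was by gene family and not by a cut on measured values, though earlier results of these data were known. The families are not complete, and some of their other genes are given further below. The families were 14 LHCB (photosystem II antenna), 6 LHCA (photosystem I antenna), 12 PSA (photosystem I) and 10 PSB (photosystem II) genes. With them were 6 electron carrier genes (PETC, PETE, ferredoxin and ferredoxin-NADP reductase) and 2 plastid ATP synthase genes. The PSA and PSB genes are called core genes here as a group name only, which covers PSBO, PSBP, PSBQ and PSBS too. All 50 passed the filter on low counts, as did 20413 genes in all, so no member was lost to it.

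RNA was sequenced from whole seedlings of 8 days, with 3 libraries for each of 3 genotypes. By the labels all were stratified for 4 days at 4 °C and kept at 21 °C under days of 16 h light. The bdr1,2,3 triple mutant (replicates 2, 4 and 7) combined T-DNA insertions in BDR1, BDR2 and BDR3, which encode nuclear proteins with a SPOC domain and a TFIIS central domain. The fpa-7 mutant (called fpa here, replicates 3, 6 and 8) carried a lesion in FPA, an RNA-binding protein of the autonomous flowering pathway that acts on 3' end processing. Wild type was Col-0 (replicates 1, 5 and 12). Each mutant was 1 line, and nothing in the labels says whether libraries of a genotype came from separate plantings, so p-values measure the spread between these libraries. Because whole seedlings were used, fewer green cells and less RNA per green cell cannot be told apart.

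In chloroplasts of green cells, antenna proteins bind chlorophyll and pass excitation to the photosystem cores. Photosystem II splits water, the cytochrome complex and plastocyanin carry electrons to photosystem I, ferredoxin and its reductase make NADPH, and the proton gradient drives ATP synthase. The core reaction-center proteins are encoded in the chloroplast, whereas the antenna and some of the small subunits are encoded by nuclear genes. These nuclear genes are known to respond to light, the clock and chloroplast state.

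Several members are near copies of each other, which bears on how their reads could be counted. The 5 LHCB1 genes encode the main antenna protein of photosystem II, and the stretch of 60 coding bases printed here, near the 3' end of the coding sequence, shows how alike they are. Capitals mark bases that differ from LHCB1.3. The sequences are from RefSeq TAIR10.1, written 5' to 3' on the coding strand, at chr1:10475140-10475199 (minus), chr1:10472494-10472553 (minus), chr1:10478764-10478823 (plus), chr2:14525508-14525567 (plus) and chr2:14522767-14522826 (minus).
LHCB1.1: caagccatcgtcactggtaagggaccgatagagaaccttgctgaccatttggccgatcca
LHCB1.2: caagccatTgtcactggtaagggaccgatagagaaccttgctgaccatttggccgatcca
LHCB1.3: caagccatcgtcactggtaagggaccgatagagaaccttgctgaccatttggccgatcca
LHCB1.4: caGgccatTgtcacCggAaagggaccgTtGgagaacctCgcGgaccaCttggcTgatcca
LHCB1.5: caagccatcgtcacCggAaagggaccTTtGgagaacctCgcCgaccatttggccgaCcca
LHCB1.1 matched LHCB1.3 at every base of this stretch, and LHCB1.2 differed at 1 base, LHCB1.5 at 8 and LHCB1.4 at 10. Over the whole coding sequence LHCB1.1 was 96.1% identical to LHCB1.3 and LHCB1.4 was 86.8% identical to it. Of all 49-base windows in the exons, the read length used, 79.0% were unique in the genome for LHCB1.1, 88.8% for LHCB1.2, 82.3% for LHCB1.3, 85.9% for LHCB1.4 and 82.3% for LHCB1.5. LHCB2.1 (76.1%), LHCB2.2 (70.1%) and LHCA2 (88.2%) also had shared windows, and the other 42 members had none. Per the paper only uniquely aligned reads were kept, so reads from shared windows would be left out of the counts. Levels of these 8 genes, given below over the full exon length, are therefore uncertain and may be too low. The size of this effect was not estimated.

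The members took a large part of each library. They held 8.80, 8.55 and 8.18% of all counts in bdr1,2,3, 7.37, 6.47 and 7.09% in fpa, and 7.40, 7.08 and 8.94% in wild type replicates 1, 5 and 12. The bdr1,2,3 libraries were all above the fpa libraries, while wild type replicate 12 lay above every mutant library and the other wild-type libraries lay within the fpa range or just above it. The means were 8.51% ± 0.31 in bdr1,2,3, 6.97% ± 0.46 in fpa and 7.81% ± 0.996 in wild type (SD, n = 3 each).

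Wild type replicate 12 stood apart and touches each comparison with wild type. It was the shallowest library, with 8676610 counts where the deepest had 26861793, and 46 of the 50 members were higher in it than in both other wild-type libraries, with a median log2 ratio to their mean of 0.48. By comparison, the median absolute log2 ratio between wild type replicates 1 and 5 was 0.074 over the same genes. These ratios are of counts scaled by TMM. The scaling factor was 0.813 for wild type replicate 12 and 0.997 to 1.07 for the other libraries, and a lower factor raises the scaled levels. Part of the excess in scaled levels therefore depends on the scaling. In unscaled counts the members held 8.94% of this library, against 7.40 and 7.08% in wild type replicates 1 and 5. In the same library 7 of 7 green tissue markers (Rubisco small subunits, Rubisco activase and GAPDH) were higher than in the other wild-type libraries, 6 of 6 tested clock markers were lower, and the 21 root markers were split, with 9 higher and 9 lower. The part of tissue makeup, harvest time or depth in this was not tested. The authors' normalized table, not used here, has 8 columns and none for this library. All values are given with it, and each comparison also without it.

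**Figure D1:**
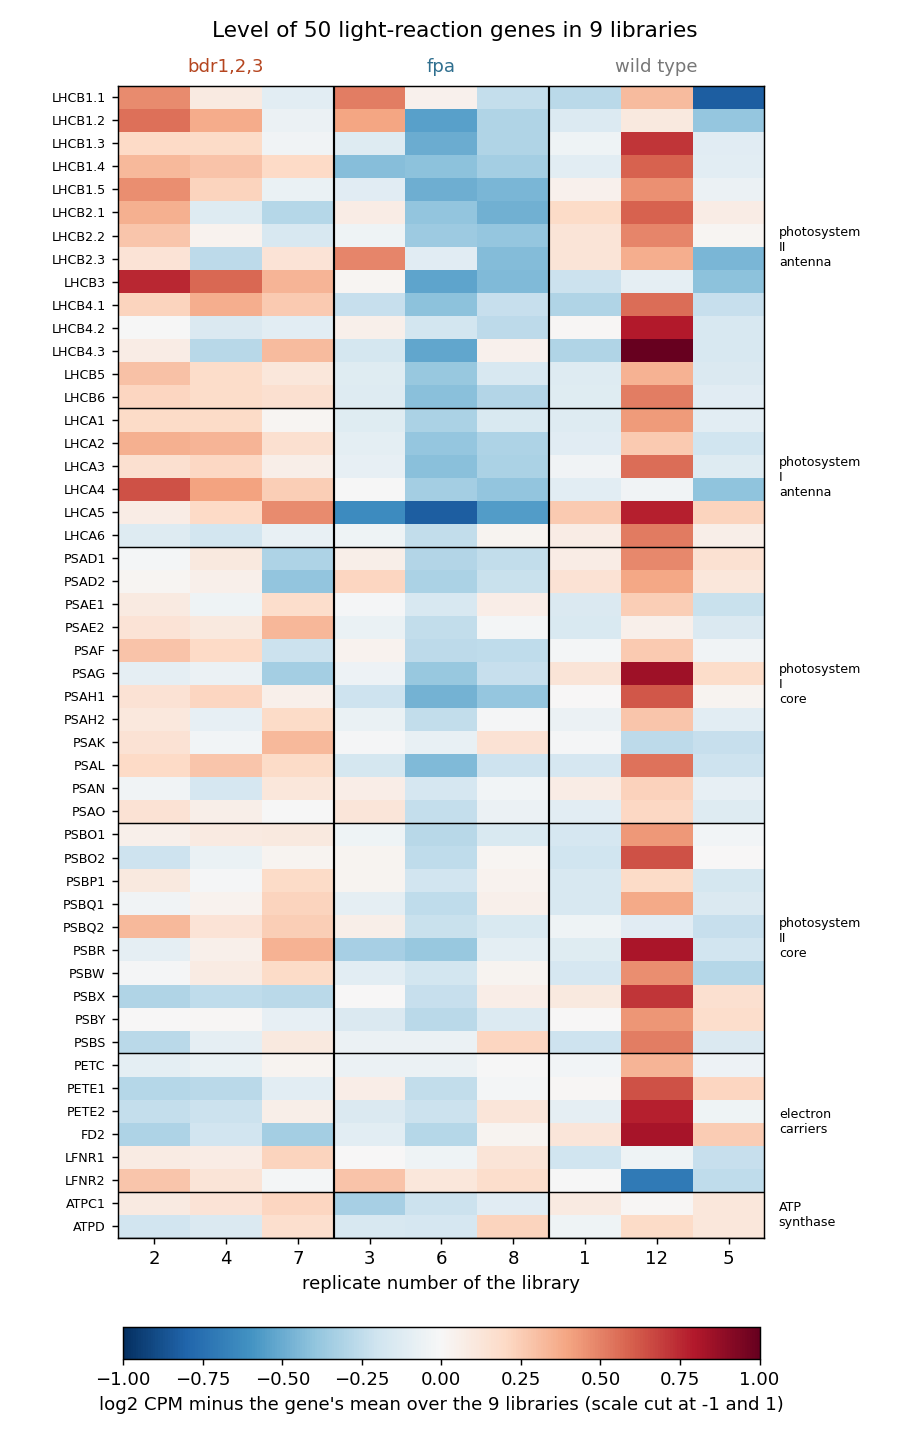
Heat map of the 50 members (rows, by functional group) in the 9 libraries (columns, by genotype and replicate number), colored by log2 CPM minus the mean of that gene over the 9 libraries. Wild type replicate 12 is red in most rows, with 35 members at their highest there, and the antenna rows are mostly red in bdr1,2,3 and blue in fpa.

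Levels between genes were compared as RPKM, which is CPM (counts scaled to a common library size by TMM) divided by exon length in kilobases. LHCB1.3 (AT1G29930) had the highest level, 11940 ± 1085 RPKM in bdr1,2,3, 8898 ± 1109 RPKM in fpa and 12940 ± 4406 RPKM in wild type (SD, n = 3 each). PSBR (AT1G79040), a small subunit at the oxygen-evolving side of photosystem II, followed with 8668 ± 1380, 6673 ± 725 and 9477 ± 3981 RPKM in bdr1,2,3, fpa and wild type. LHCB1.3 exceeded PSBR per kilobase in 9 of 9 libraries, by a ratio of 1.05 to 1.68, although the wild-type means lay within 1 SD of each other. At the other end LHCB2.3 (AT3G27690), whose windows were all unique, had 4.87 ± 0.74 RPKM in bdr1,2,3, 4.93 ± 1.65 in fpa and 4.99 ± 1.36 in wild type. LHCB1 genes supplied between 25.3 and 31.6% of the summed member CPM over the 9 libraries and the 3 LHCB2 genes between 0.0626 and 0.0901%. Reads lost from shared windows were not corrected for in these shares.

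Comparing bdr1,2,3 with wild type asks how loss of the BDR proteins changes expression of these genes. On all 9 libraries the members showed no common shift. Their median log2 fold change was 0.0097, beside 0.012 for all tested genes, and 25 were positive and 25 negative. In the edgeR quasi-likelihood test with Benjamini-Hochberg adjustment, 1 of 50 passed an adjusted p of 0.05, where 2.48% of all tested genes did, and 10 of 50 had an unadjusted p under 0.05. Every bdr1,2,3 library was above every wild-type library for 5 members (background 9.45%) and below for 6 (background 9.62%).

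LHCB3 (AT5G54270), which encodes a minor protein of the main, trimeric photosystem II antenna, was the member that passed, and it rose. It measured 553.8, 489.3 and 414.2 CPM in bdr1,2,3, against 282.1, 247.5 and 307.5 CPM in wild type replicates 1, 5 and 12. The groups did not overlap. The log2 fold change was 0.80 ± 0.17 (SE; edgeR adjusted p = 0.0218), and without wild type replicate 12 it was 0.87 ± 0.16 (edgeR adjusted p = 0.00551). The call was lost without bdr1,2,3 replicate 2 (edgeR adjusted p = 0.119), without bdr1,2,3 replicate 4 (0.0860) or without wild type replicate 5 (0.108).

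LHCA4 (AT3G47470), an antenna protein of photosystem I that carries its far-red chlorophylls, had 1757, 1500 and 1345 CPM in bdr1,2,3, against 1050, 856.3 and 1102 CPM in wild type replicates 1, 5 and 12. These groups did not overlap either. Its log2 fold change of 0.61 ± 0.17 (SE) missed the threshold with all libraries (edgeR adjusted p = 0.0759) and passed it without wild type replicate 12, at 0.68 ± 0.14 (edgeR adjusted p = 0.0141). The mean was 1534 ± 208 CPM in bdr1,2,3 and 1003 ± 129 CPM in wild type (SD, n = 3 each).

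On the acceptor side of photosystem I and in photosystem II, the members with the largest negative changes in bdr1,2,3 were FD2 and PSBX. FD2 (AT1G60950), the main ferredoxin of leaves, had 829.6, 899.6 and 811.2 CPM in bdr1,2,3, against 1118, 1221 and 1812 CPM in wild type replicates 1, 5 and 12. All bdr1,2,3 libraries were below all wild-type libraries, and wild type replicate 12 was far above the rest. The log2 fold change was -0.71 ± 0.18 (SE; edgeR adjusted p = 0.0575), and -0.47 ± 0.11 without wild type replicate 12 (edgeR adjusted p = 0.0254). PSBX (AT2G06520), a small photosystem II subunit, had 768.2, 793.9 and 782.2 CPM in bdr1,2,3, against 1013, 1053 and 1554 CPM in wild type replicates 1, 5 and 12. Its log2 fold change was -0.63 ± 0.17 (SE; edgeR adjusted p = 0.0821), and -0.41 ± 0.11 without wild type replicate 12 (edgeR adjusted p = 0.0476). Both therefore had a smaller change and a smaller SE without that library.

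**Figure D2:**
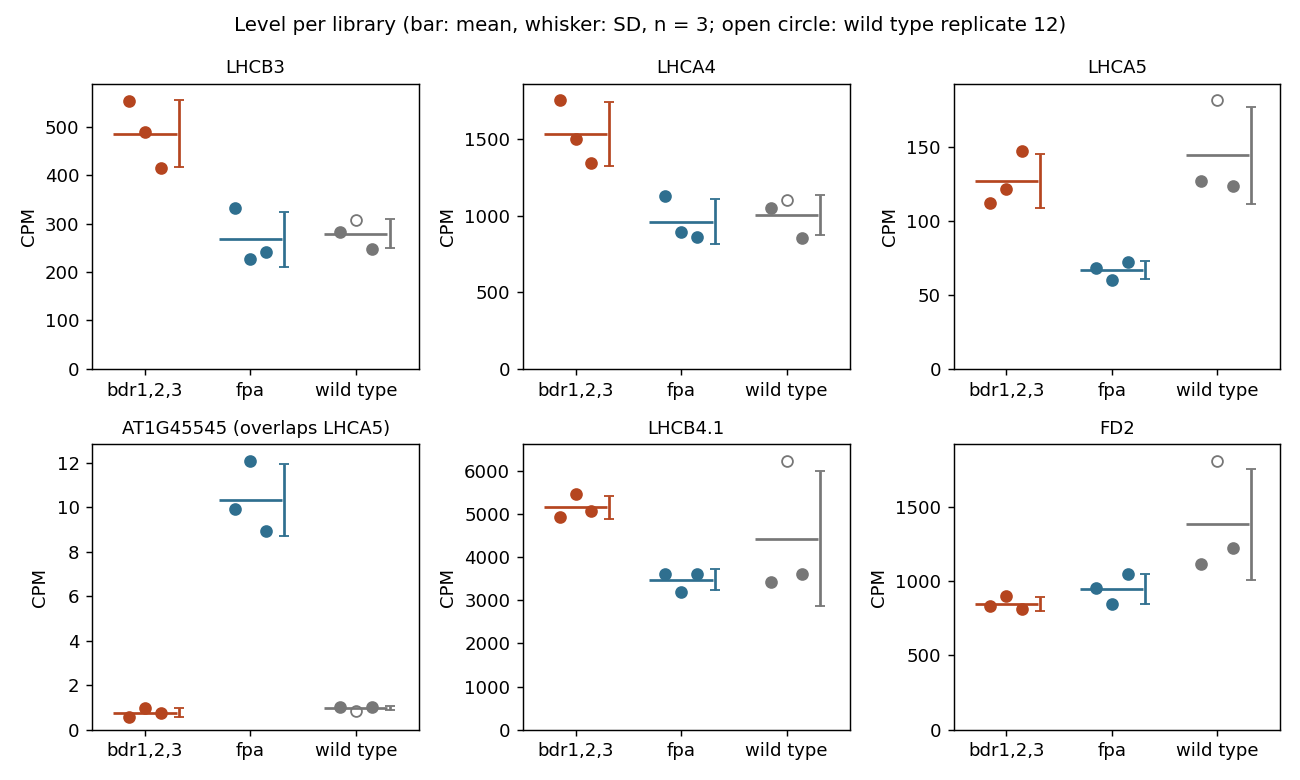
CPM per library for LHCB3, LHCA4, LHCA5, AT1G45545, LHCB4.1 and FD2, in bdr1,2,3, fpa and wild type from left to right, with the mean and SD of 3 libraries; the open circle is wild type replicate 12. LHCB3 and LHCA4 are high in bdr1,2,3 alone, LHCA5 is low in fpa while AT1G45545 is high there, and the wild-type spread of LHCB4.1 and FD2 comes from the open circle.

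Leaving out wild type replicate 12 changed which members passed in bdr1,2,3. The count became 8 of 50 by edgeR, where 3.15% of all tested genes passed, and the median of the members was 0.19, where that of all genes was 0.0097, with 35 positive and 15 negative. Antenna genes made up 5 of the 6 that rose: LHCB1.4 (0.37 ± 0.09), LHCB3, LHCB4.1 (AT5G01530, 0.55 ± 0.10), LHCA2 (AT3G61470, 0.44 ± 0.11) and LHCA4. The remaining one was PSAL (AT4G12800, 0.41 ± 0.10), a photosystem I core subunit on the side where mobile antenna docks. FD2 and PSBX fell. LHCB4.1 and LHCA2 were named after their values were seen. With this library in, LHCB4.1 had a log2 fold change of 0.22 ± 0.21 and PSAL of 0.12 ± 0.19 (SE; edgeR adjusted p = 0.674 and 0.814).

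The near-identical LHCB1 genes did not pass with all libraries in bdr1,2,3. LHCB1.3 measured 15510, 15410 and 13150 CPM in bdr1,2,3, against 13110, 12470 and 22160 CPM in wild type replicates 1, 5 and 12, so that wild type replicate 12 alone exceeded every bdr1,2,3 library. LHCB1.4 (AT2G34430) had 4626, 4503 and 4244 CPM in bdr1,2,3, against 3443, 3445 and 5587 CPM in wild type. LHCB1.5 (AT2G34420) had 5541, 4660 and 3815 CPM in bdr1,2,3, against 4118, 3842 and 5495 CPM in wild type. The groups overlapped for each of the 3. LHCB1.2 (AT1G29910) had 1075, 948.0 and 703.4 CPM in bdr1,2,3, against 664.9, 560.0 and 784.6 CPM in wild type. LHCB1.1 (AT1G29920), the lowest of the family, had 44.6, 34.2 and 29.9 CPM in bdr1,2,3, against 26.6, 18.1 and 39.99 CPM in wild type, and both groups overlapped again. The log2 fold changes of the 5 ran between -0.12 and 0.44 with all libraries and between 0.20 and 0.70 without wild type replicate 12.

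Among the core and carrier genes most values overlapped between bdr1,2,3 and wild type. PSAG (AT1G55670), which helps attach the photosystem I antenna, had 1023, 1044 and 859.9 CPM in bdr1,2,3, against 1190, 1236 and 1957 CPM in wild type replicates 1, 5 and 12, with a log2 fold change of -0.58 ± 0.19 (SE; edgeR adjusted p = 0.157), and -0.32 ± 0.12 without wild type replicate 12 (edgeR adjusted p = 0.200). The bdr1,2,3 values were all lower, by a margin smaller than the gap between wild type replicate 12 and the other wild-type libraries. PETE2 (AT1G20340), the more abundant plastocyanin gene, had 2342, 2379 and 2879 CPM in bdr1,2,3, against 2595, 2684 and 4750 CPM in wild type. ATPC1 (AT4G04640), the gamma subunit of the ATP synthase, had 987.5, 1015 and 1074 CPM in bdr1,2,3, against 985.4, 999.3 and 935.3 CPM in wild type, and ATPD (AT4G09650), the delta subunit, had 585.6, 604.8 and 749.9 CPM against 649.7, 723.1 and 763.7 CPM. Wild type replicate 12 did not stand apart for either ATP synthase gene.

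The comparison of fpa with wild type asks the same of FPA. The members leaned lower in fpa, with a median log2 fold change of -0.27 where all tested genes had 0.0049, and 43 of 50 were negative. Of the 50, 1 passed in the edgeR test (background 3.10%), and 17 had an unadjusted p under 0.05. All fpa libraries were below all wild-type libraries for 15 members, 30% of them (background 13.4%), and above for 1, LFNR2 (background 13.3%). Without wild type replicate 12 the median was -0.06, 31 of 50 were negative, and again 1 passed (background 3.39%), so most of the lean went with that library.

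LHCA5 (AT1G45474), a minor photosystem I antenna protein known for linking photosystem I to the NDH complex, was the member that fell in fpa. It measured 68.5, 60.1 and 72.2 CPM in fpa, against 127.2, 124.0 and 182.0 CPM in wild type replicates 1, 5 and 12. The fpa libraries lay far below every wild-type library. The log2 fold change was -1.11 ± 0.17 (SE; edgeR adjusted p = 0.00332), and -0.91 ± 0.13 without wild type replicate 12 (edgeR adjusted p = 0.000868). It passed in each of the alternatives run, with edgeR or DESeq2 adjusted p between 2.99e-07 and 0.0294. In bdr1,2,3 it had 111.9, 121.9 and 147.4 CPM, a log2 fold change of -0.18 ± 0.17 from wild type (SE; edgeR adjusted p = 0.660).

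Counts of the gene that overlaps LHCA5 moved the opposite way in fpa. LHCA5 lies on the plus strand of chromosome 1 (TAIR10.1, 17179250 to 17180806), and AT1G45545, a protein-coding gene on the minus strand (17180615 to 17183237), shares its last 192 bases. AT1G45545 measured 9.91, 12.1 and 8.94 CPM in fpa, against 1.04, 1.01 and 0.851 CPM in wild type replicates 1, 5 and 12. Its log2 fold change in fpa was 3.38 ± 0.30 (SE; edgeR adjusted p = 6.54e-05), and in bdr1,2,3 it had 0.558, 0.955 and 0.756 CPM. In raw reads it had 175, 228 and 188 counts in fpa, against 20, 27 and 6 in wild type. The paper describes a stranded library kit, but the labels and the paper differ on the kit. Whether the counting used strand was not given in the sources used here. It therefore cannot be told from which strand the reads counted for either gene came, within the shared bases or beyond them. Whether the transcript of AT1G45545 itself rose was not tested. AT1G45545 was singled out after its values were seen. Overlapping genes were found for 18 members, and 18 of those overlapping genes were tested. AT1G45545 was the 1 of them that passed in fpa against wild type, where 3.10% of all tested genes did.

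Other antenna and core genes were lower in fpa without passing. LHCB1.3 had 12310, 9582 and 10940 CPM in fpa (wild type values as above), and its log2 fold change was -0.54 ± 0.22 (SE; edgeR adjusted p = 0.192). LHCB1.4 had 2753, 2784 and 2926 CPM in fpa, all below wild type, with -0.56 ± 0.19 (edgeR adjusted p = 0.120). LHCB1.5 had 3712, 2852 and 2920 CPM in fpa, with -0.50 ± 0.19. LHCB1.2 and LHCB1.1 had 962.4, 503.6 and 593.9 CPM and 45.9, 33.1 and 27.2 CPM, overlapping wild type. PSAG had 1049, 838.1 and 926.3 CPM in fpa, with -0.64 ± 0.19 (edgeR adjusted p = 0.0861), and FD2 had 952.1, 842.9 and 1046 CPM, with -0.55 ± 0.18 (edgeR adjusted p = 0.113). LHCB3 in fpa (332.7, 227.2 and 242.0 CPM) and LHCA4 in fpa (1130, 893.1 and 861.0 CPM) overlapped wild type, with log2 fold changes of -0.06 ± 0.17 each. PSBR had 4994, 4821 and 5881 CPM in fpa, and 5761, 5498 and 11030 CPM in wild type replicates 1, 5 and 12, where the last value alone sets the difference. Without wild type replicate 12 these fpa values were smaller and none passed: -0.23 ± 0.11 for LHCB1.3, -0.29 ± 0.09 for LHCB1.4, -0.33 ± 0.14 for LHCB1.5, -0.37 ± 0.12 for PSAG, -0.31 ± 0.11 for FD2 and -0.11 ± 0.12 for PSBR (SE; edgeR adjusted p from 0.0944 for LHCB1.4 to 0.698 for PSBR).

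**Figure D3:**
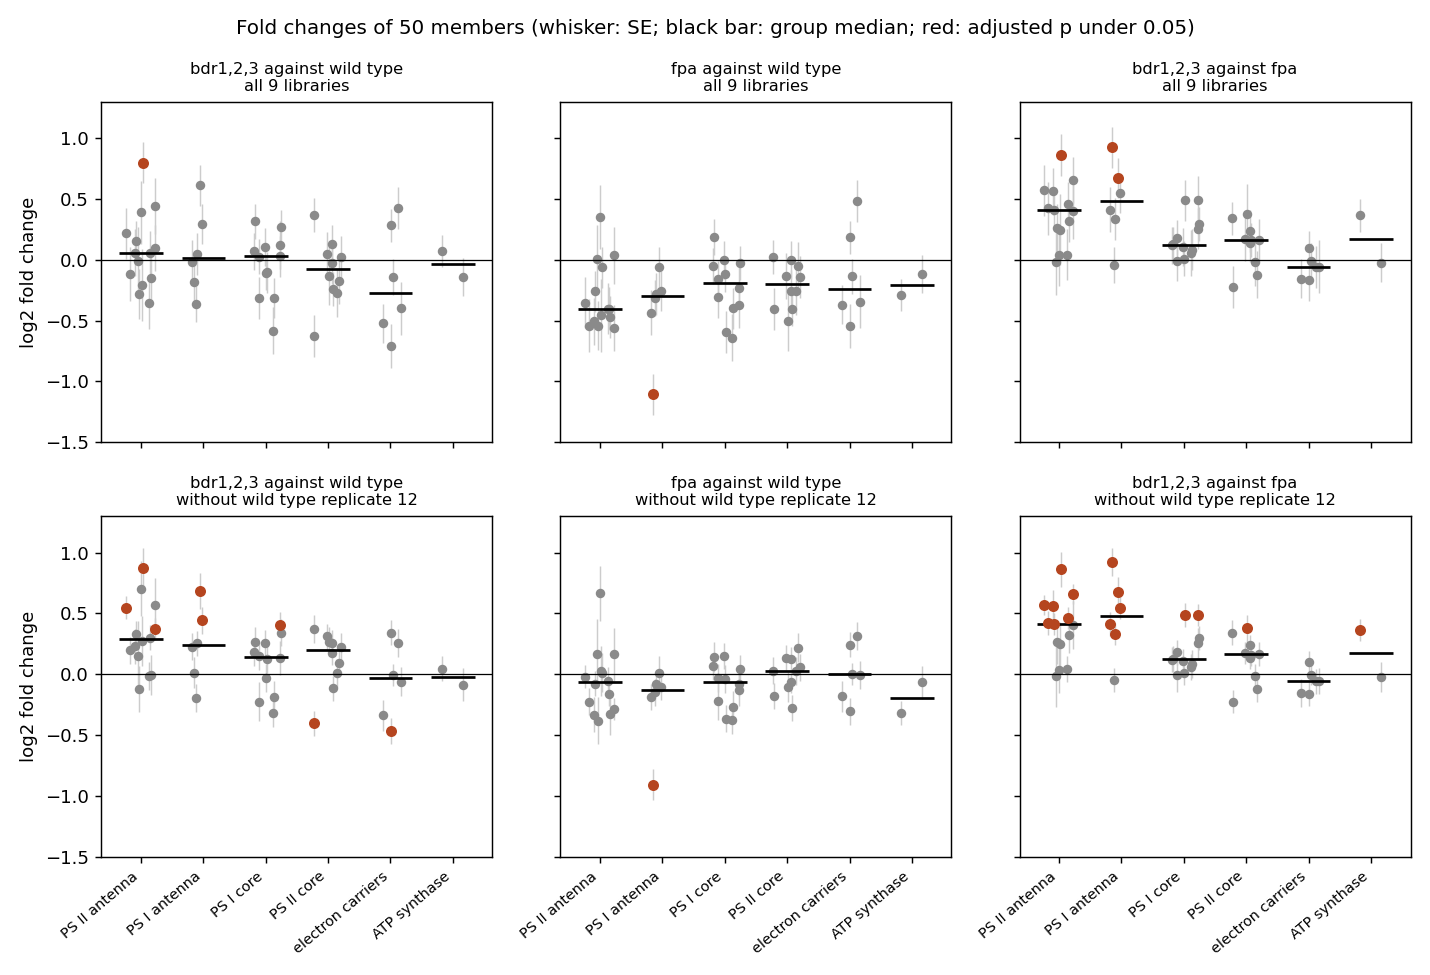
Log2 fold changes with SE of the 50 members by functional group (x axis), for bdr1,2,3 against wild type, fpa against wild type and bdr1,2,3 against fpa, with all 9 libraries (top) and without wild type replicate 12 (bottom); red points passed an adjusted p of 0.05 by edgeR and black bars are group medians. The antenna medians in bdr1,2,3 against fpa, 0.41 and 0.48, are nearly the same in both rows, whereas the medians against wild type move up without replicate 12.

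The direct comparison of bdr1,2,3 with fpa does not use the wild-type levels, so wild type replicate 12 enters it only through the shared estimate of spread and scaling. Here the antenna groups had the largest medians of the 6 functional groups. The median log2 difference was 0.41 over the 14 LHCB genes, with 13 positive, and 0.48 over the 6 LHCA genes, with 5 positive. It was 0.12 over the photosystem I core genes, 0.16 over the photosystem II core genes and -0.06 over the electron carriers, beside 0.18 over all members and 0.0057 over all tested genes. All bdr1,2,3 libraries were above all fpa libraries for 20 of 50 members, 40% of them (background 12.1%), among them 7 of 14 LHCB and 5 of 6 LHCA genes. They were below for 1, PSBX (background 11.9%).

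By edgeR 3 members passed in this comparison, each of them an antenna gene higher in bdr1,2,3 (background 3.54%), and 15 had an unadjusted p under 0.05. LHCA5 differed by 0.92 ± 0.17 (SE; edgeR adjusted p = 0.00604), LHCB3 by 0.86 ± 0.17 (0.0106) and LHCA4 by 0.67 ± 0.17 (0.0395) on the log2 scale. The values by library were given above, and none of the 3 overlapped between the mutants. LHCA5 was low in fpa with bdr1,2,3 near wild type, while LHCB3 and LHCA4 were high in bdr1,2,3 with fpa near wild type. The LHCB3 and LHCA4 calls were lost without bdr1,2,3 replicates 2 or 4 or fpa replicates 6 or 8.

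Without wild type replicate 12, which lowers the estimated spread, 16 members passed with nearly the same differences (background 7.51%), all higher in bdr1,2,3. A fit of the 6 mutant libraries alone called 14 (background 6.31%). These 16 were LHCB1.3, LHCB1.4, LHCB1.5, LHCB3, LHCB4.1, LHCB5, LHCB6, LHCA1 to LHCA5, PSAH1, PSAL, PSBR and ATPC1. LHCB1.4 differed by 0.66 ± 0.08 (SE; edgeR adjusted p = 8.75e-05) without wild type replicate 12, and by 0.66 ± 0.19 (edgeR adjusted p = 0.0795) with it. LHCA1 (AT3G54890), another photosystem I antenna protein, had 2944, 2930 and 2611 CPM in bdr1,2,3, against 2364, 2061 and 2310 CPM in fpa. PSAL had 2925, 3086 and 2908 CPM in bdr1,2,3, against 2263, 1878 and 2205 CPM in fpa. ATPC1 had 987.5, 1015 and 1074 CPM in bdr1,2,3, against 736.4, 796.0 and 856.4 CPM in fpa. PSBX and PETE2 went the other way or showed little difference: PSBX had 948.1, 804.1 and 990.7 CPM in fpa, all above bdr1,2,3 but not past the threshold (-0.23 ± 0.17), and PETE2 had 2500, 2380 and 3016 CPM in fpa, overlapping bdr1,2,3. ATPD, with 597.4, 594.3 and 779.0 CPM in fpa, overlapped bdr1,2,3 too.

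**Figure D4:**
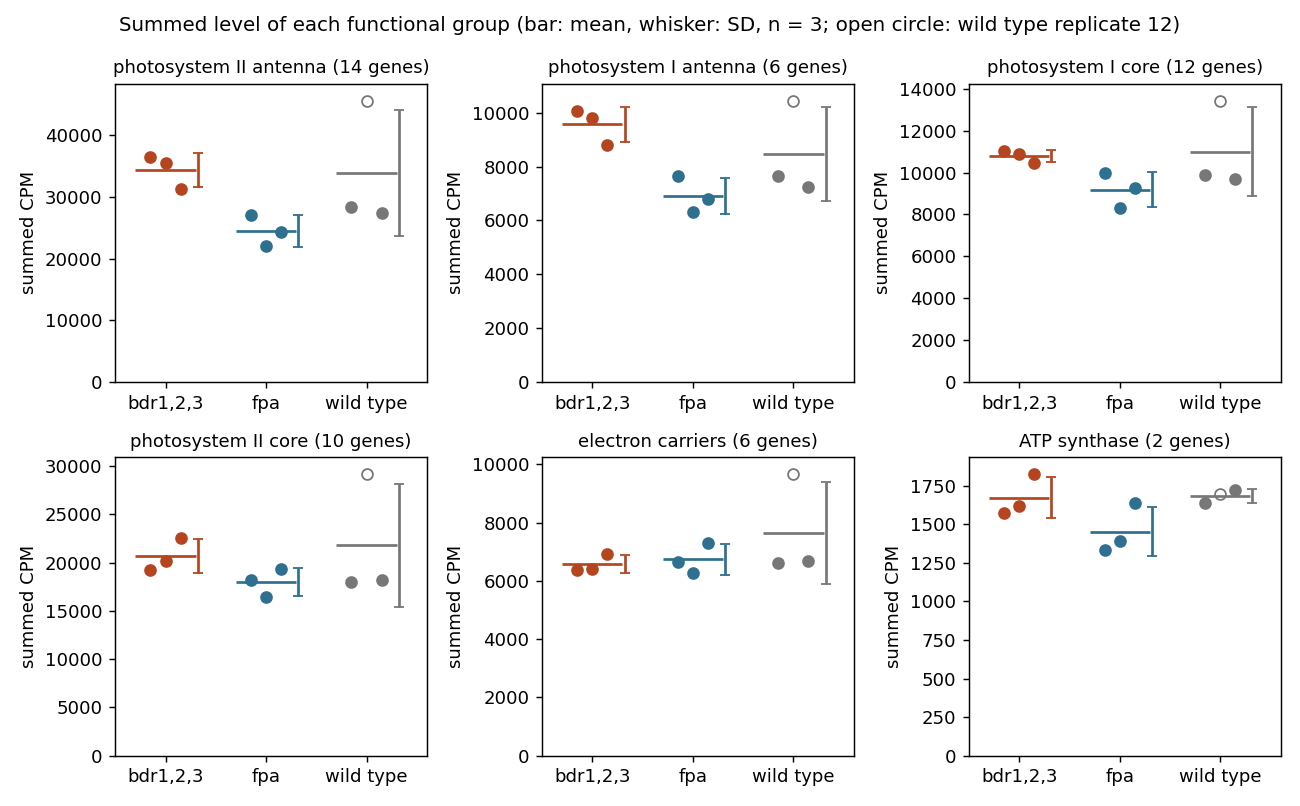
Summed CPM of each functional group per library in bdr1,2,3, fpa and wild type, with the mean and SD of 3 libraries; the open circle is wild type replicate 12. The bdr1,2,3 and fpa points are separate for both antenna groups and the photosystem I core, and overlap for the photosystem II core, the electron carriers and the ATP synthase.

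Summed by group, the photosystem II antenna genes held 31282 to 36501 CPM in bdr1,2,3, 21970 to 27105 CPM in fpa, and 28437, 27471 and 45635 CPM in wild type replicates 1, 5 and 12. The photosystem I antenna genes held 8814 to 10062 CPM in bdr1,2,3, 6325 to 7644 CPM in fpa, and 7659, 7252 and 10452 CPM in wild type. The electron carriers held 6370 to 6931 CPM in bdr1,2,3 and 6262 to 7314 CPM in fpa. Thus the mutants were separate in antenna transcripts and overlapped in carrier transcripts.

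Genes of neighboring functions, listed beside the members, are given next, and no difference between them and the members was tested. Of all tested genes, 2.48% passed in bdr1,2,3 against wild type, 3.10% in fpa against wild type and 3.54% in bdr1,2,3 against fpa. Of 10 other light-reaction subunits, 1 passed in bdr1,2,3 against wild type: FD1 (AT1G10960), the minor leaf ferredoxin, fell to 153.2, 169.5 and 213.0 CPM in bdr1,2,3, against 305.5, 419.7 and 772.4 CPM in wild type replicates 1, 5 and 12 (log2 fold change -1.48, edgeR adjusted p = 0.0102; -1.02 and 0.00344 without wild type replicate 12). Like FD2, FD1 was lower in all bdr1,2,3 libraries than in all wild-type libraries. All 10 of these subunits had negative values in bdr1,2,3 against wild type, with a median of -0.34. Without wild type replicate 12, 7 were negative and 3 positive, with a median of -0.08. In fpa against wild type 9 of the 10 were negative (median -0.37), and 8 without wild type replicate 12 (median -0.13). None of the 8 light-harvesting-like genes, which include the early light-induced proteins, passed in any comparison with all libraries (smallest adjusted p 0.134, 0.123 and 0.179 by edgeR). Without wild type replicate 12, 1 of them passed in bdr1,2,3 against wild type, LIL3:1 (AT4G17600), which was higher (0.41, edgeR adjusted p = 0.0488). None of the 19 assembly and regulation genes, which include GLK1 and GLK2, the transcription factors known to activate many antenna genes, passed against wild type (smallest edgeR adjusted p = 0.134 in bdr1,2,3 and 0.0944 in fpa). In bdr1,2,3 against fpa 1 passed, ABA1 (AT5G67030), the zeaxanthin epoxidase, which was lower in bdr1,2,3 (-0.45, edgeR adjusted p = 0.0446).

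Markers that describe the seedlings are given beside these results. Against wild type, 2.48% of all tested genes passed in bdr1,2,3 and 3.10% in fpa. Without wild type replicate 12 the shares were 3.15 and 3.39%. Of 7 green tissue markers 2 fell in bdr1,2,3: GAPB (AT1G42970, 1193, 1439 and 1437 CPM in bdr1,2,3, against 2322, 2538 and 4236 CPM in wild type; -1.16, edgeR adjusted p = 0.00699) and RCA (AT2G39730, -0.73, edgeR adjusted p = 0.0186). The paper names GAPB as a gene close behind a same-strand neighbor whose induction by light was reduced in bdr1,2,3. Its fall therefore does not by itself describe the amount of green tissue. All 7 markers had negative values, and 4 of 7 fell without wild type replicate 12. Their summed level was 18077 to 20448 CPM in bdr1,2,3, 21310 to 25183 CPM in fpa and 23425 to 40535 CPM in wild type. Root markers summed to 243.8 to 304.8 CPM in bdr1,2,3, 248.7 to 276.5 CPM in fpa and 241.9 to 290.5 CPM in wild type, so their range was shared. Of the 21 root markers, 13 were positive and 8 negative in each mutant against wild type. With all libraries 1 passed, PHT1;1, a phosphate transporter, which was lower in both mutants. Its value was -0.995 in bdr1,2,3 (edgeR adjusted p = 0.00437) and -0.67 in fpa (edgeR adjusted p = 0.0450, and 0.0624 without wild type replicate 12). Without wild type replicate 12, CASP4 (AT5G06200) passed in fpa and was higher (1.38, edgeR adjusted p = 0.0380). Of 8 clock markers 6 were tested and none passed (smallest edgeR adjusted p = 0.330 in bdr1,2,3 and 0.259 in fpa). The part of tissue makeup in the member results was not tested. As a check of the labels, BDR1 fell to 0.894 to 1.95 CPM in bdr1,2,3, against 29.1 to 42.0 CPM in wild type, and BDR2 fell by 0.85 on the log2 scale. BDR3 (-0.76, edgeR adjusted p = 0.226) in bdr1,2,3 and FPA (-0.39, edgeR adjusted p = 0.248) in fpa did not pass, and the labels do not say whether the fpa-7 allele lowers the transcript. FPA was about as low in bdr1,2,3 (37.5 ± 8.1 CPM) as in fpa (41.5 ± 3.8 CPM), beside 54.1 ± 10.7 CPM in wild type (SD, n = 3 each), and it passed in bdr1,2,3 without wild type replicate 12 (-0.67, edgeR adjusted p = 0.0300), so its level does not mark the fpa libraries.

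Position relative to neighbors was examined because the study concerns BDR proteins at the borders between neighboring genes. The next protein-coding gene upstream lay on the member's own strand for 23 of 50 members (46%, 95% Wilson interval 33.0 to 59.6%), and for 51.2% of 19797 tested genes. For 12 members (24%) it was on the same strand, did not overlap and was under 600 bp away, as for 22.6% of tested genes. For PSAD2 and PSBP1 the same-strand upstream gene overlapped the member, by 2 and 22 bp, and both are counted among the other 38. In bdr1,2,3 against wild type these 12 had a median log2 fold change of 0.05 and the other 38 members -0.01, and without wild type replicate 12 the medians were 0.29 and 0.16. In the paper, genes lowered in bdr1,2,3 tended to lie close behind a same-strand neighbor of high expression. Expression of the neighbor was not used to choose these 12. Their upstream neighbors had mean levels from 2.51 to 129 CPM in wild type, so the medians do not test the context that the paper describes. LHCB3 was among the 12: the gene upstream, MRE11 (AT5G54260), a DNA repair nuclease, ends 112 bp before it. MRE11 had a log2 fold change of 0.74 ± 0.24 in bdr1,2,3 against wild type (SE; edgeR adjusted p = 0.140). PSBX was also among them, 74 bp from its upstream neighbor.

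The sequences before the 3 genes that differed between the mutants are shown since these are the members the calls rest on. They run 5' to 3' on the gene's strand and end at the base before the annotated start, from RefSeq TAIR10.1. For LHCB3 (chr5:22038053-22038164, plus strand) it is the whole gap of 112 bases to MRE11, and for LHCA4 (chr3:17495034-17495283, minus strand) and LHCA5 (chr1:17179000-17179249, plus strand) it is 250 bases. Capitals mark matches, on either strand, to the motifs named in the next paragraph.
LHCB3: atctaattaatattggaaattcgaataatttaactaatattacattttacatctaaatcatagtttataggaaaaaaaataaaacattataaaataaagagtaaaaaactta
LHCA4: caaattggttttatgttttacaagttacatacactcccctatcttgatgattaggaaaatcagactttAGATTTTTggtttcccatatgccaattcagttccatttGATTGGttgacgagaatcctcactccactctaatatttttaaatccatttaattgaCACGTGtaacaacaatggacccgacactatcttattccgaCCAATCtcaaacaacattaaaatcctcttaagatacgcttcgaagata
LHCA5: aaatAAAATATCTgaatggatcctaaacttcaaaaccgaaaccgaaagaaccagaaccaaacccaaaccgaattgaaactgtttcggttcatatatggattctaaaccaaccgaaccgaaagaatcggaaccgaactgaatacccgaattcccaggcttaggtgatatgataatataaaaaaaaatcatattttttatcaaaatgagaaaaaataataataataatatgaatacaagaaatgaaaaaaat
The LHCB3 gap held none of the letters searched, LHCA4 held a G-box at -88, a match to the CCA1-binding site at -182 and CCAATC at -144 and -48, and LHCA5 held an evening element at -246, counted from the annotated start.

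The motifs were searched as exact letters on both strands in the 250 bases before each start, in 27443 protein-coding genes, and none of them contains another. The I-box core GATAAG was in 12 of 50 members (24%), and in 12.3% of all. The G-box CACGTG was in 9 (18%), and in 6.49% of all, and the letters CCAATC, of the CCAAT-box kind, were in 14 (28%), and in 10.2% of all. The CCA1-binding letters AAAAATCT were in 5 members (10%), and in 6.69% of all. The evening element AAAATATCT was in 2, LHCA5 and ATPC1 (4%), and in 2.36% of all. A match describes letters and not a bound site.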

How the data were processed

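RNA-seq counts of 9 libraries were used, 3 per genotype, grouped by the labels. The authors deposited raw counts per gene. Per the paper and the submitters' processing notes, 49-base single-end reads were aligned to TAIR10 with TopHat2 2.0.8. Uniquely aligned reads were kept, with SAMtools 1.2 and grep, and counted with featureCounts. The version and strand setting of featureCounts were not given in the sources used here. The labels and the paper differ on the growth temperature, the library kit and the bdr2 stock. The authors' normalized table was not used.

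Counts were filtered (filterByExpr), scaled by TMM and fitted in 1 model of 3 genotypes with edgeR 4.0.16 (R 4.3.3), and p-values were adjusted over all 20413 genes (threshold 0.05). Totals ran from 8676610 to 26861793 counts. Replicates differed by more than sampling noise (chi-square per degree of freedom 8.56 to 38.8). Chloroplast and mitochondrial rows took 0.0577 to 0.159% of counts. On simulated counts for bdr1,2,3 against wild type over 20413 genes, 81% of 2-fold and 97% of 4-fold changes were recovered, with 8 false calls among 186.

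CPM used the scaled library sizes. Positions, exon lengths and sequences are from RefSeq TAIR10.1, in which all 50 members matched. Members with values in every library were those called against wild type, in each functional group the member with the highest mean CPM and the largest change in each mutant, and the 5 LHCB1 genes. The members and lists were chosen with earlier results of these data known. Alternatives were DESeq2 1.42.0, RLE scaling, removal of organelle rows, other count filters, fits of 2 genotypes, a threshold of 0.01 and each library left out.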

Additional observations from a re-analysis of the deposited data

How the results depend on the processing

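The members called with all libraries were 1 in bdr1,2,3 against wild type, 1 in fpa against wild type and 3 in bdr1,2,3 against fpa. DESeq2 called 4, 6 and 6 members, where it called 4.00, 6.46 and 4.83% of all genes, and edgeR without a filter on low counts called 4 and 3 against wild type, where it called 2.56 and 3.79%. A fit of bdr1,2,3 and fpa alone called 14, where it called 6.31% of all genes. At an adjusted p under 0.01 the counts were 0 in bdr1,2,3 against wild type (10 members had an unadjusted p under 0.05, and DESeq2 called 4 at 0.05) and 1 in bdr1,2,3 against fpa. Of all genes, 1.12 and 1.67% passed at 0.01 in these 2 comparisons. Leaving out each library in turn, the counts ran from 0 to 8, from 1 to 4 and from 1 to 16. The highest counts of 8 and 16 came without wild type replicate 12, where 3.15 and 7.51% of all genes passed. The 4 in fpa, with another 4 in bdr1,2,3, came without wild type replicate 1, where 4.47 and 2.78% of all genes passed. The count of 0 came without bdr1,2,3 replicate 2, bdr1,2,3 replicate 4 or wild type replicate 5. The median log2 fold change of the members in fpa ran from -0.36 to -0.063 with single libraries left out, the value nearest 0 without wild type replicate 12. RLE scaling, removal of organelle rows and a minimum of 10 counts in every library gave the counts 1, 1 and 3 again. Of 765 alternative values of the named members, 34 passed where they had not, 11 no longer passed, 20 uncalled values moved by more than their error, and no call changed direction. The sign changed in 25 of the 765, none of them called, where the value with all libraries was at most 0.18 in size. The share of members with a same-strand upstream gene was 44% with any annotated gene as neighbor. No paired analysis was made because the labels do not say which libraries, if any, belong together across genotypes. The 3 libraries per genotype and the wide wild-type spread limit what changes could be detected.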

Other observations

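Of 18 tested genes that overlap a member, 2 passed in bdr1,2,3 against wild type, where 2.48% of all tested genes did, both on the strand opposite to a photosystem I subunit gene and both lower in bdr1,2,3. AT2G20270 shares 63 bases with PSAE2 and had a log2 fold change of -0.98 ± 0.14 (SE; edgeR adjusted p = 0.00140), and AT4G28740 shares 9 bases with PSAE1 and had -0.78 ± 0.15 (edgeR adjusted p = 0.0135). AT2G20270 also passed in bdr1,2,3 against fpa, at -0.65 ± 0.14. PSAE2 itself was higher in every bdr1,2,3 library than in every wild-type library, with a log2 fold change that did not pass. These genes were chosen after their values were seen.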
